A study of Saccharomyces cerevisiae with 210 samples.

Results

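The difference between the response of grx2 mutant cells and that of grx1 mutant cells to CHP, 20 min after the oxidant was added, was measured for 5656 yeast genes. It was taken as (grx2 CHP minus grx2 control) minus (grx1 CHP minus grx1 control), so that a positive value means a more positive response in grx2. It rests on 11 of the 210 arrays of the series, 2 of grx2 CHP cultures, 3 of grx2 controls, 3 of grx1 CHP cultures and 3 of grx1 controls. The array of grx2 CHP replicate 2 was left out because its values stand apart, and the main results are also given with it kept. Both mutants are of the diploid Saccharomyces cerevisiae background BY4743. The labels name the genotype of each but give neither the allele, nor whether both gene copies are lost, nor how many clones were used. All cultures grew in fermentors at a controlled pH and temperature to mid-exponential phase. Then 3 cultures of each genotype received 0.19 mM CHP, an abbreviation read here as cumene hydroperoxide, and 3 were left untreated. The other genotypes of the series, wild type among them, enter the estimate of the spread between arrays. That estimate was shared by all groups, but the grx2 arrays at 20 min varied more than those of grx1. Median absolute deviations of an array from its group were 0.20 to 0.31 in the grx2 arrays used and 0.09 to 0.13 in grx1. The printed standard errors, intervals and p-values may therefore be too small for this difference. By how much was not tested.

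Glutaredoxins are small proteins that use glutathione to reduce disulfides and to remove glutathione from protein thiols. Grx1 and Grx2 are dithiol glutaredoxins of the yeast cytosol, and Grx2 is also found in mitochondria. Oxidized glutathione is returned to its reduced form by glutathione reductase, the product of GLR1. Organic hydroperoxides such as CHP set off the Yap1 regulon, the general stress genes under Msn2 and Msn4, and a fall in the genes for making ribosomes.

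The 2 genes that name the mutants were checked first. In grx2 cultures at 20 min GRX2 had log2 values of 4.54 and 4.56 with CHP, and 4.10, 4.36 and 6.03 in the controls. In grx1 cultures GRX2 stood at 11.78, 11.77 and 11.70 with CHP and at 9.91, 10.001 and 10.09 in the controls. GRX2 was thus low in every grx2 array, and the value of 6.03, in control replicate 3, was the highest of the 30 arrays of grx2, whose mean was 4.59 ± 0.39 (SD). GRX1 lay at 11.19 and 11.18 in grx2 CHP arrays and at 10.30, 10.45 and 10.25 in grx2 controls. It lay at 4.82, 4.58 and 4.79 in grx1 CHP arrays and at 4.63, 4.31 and 4.71 in grx1 controls, so each genotype was low for its own gene only.

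An array of grx2 beside the one left out stood apart from its group. Control replicate 3 correlated with the other 2 controls of grx2 at 0.957 and 0.958, and 499 genes in it lay over 1 log2 unit from their mean. The left-out CHP replicate 2 correlated with its group at 0.856 and 0.870, with 667 such genes. Each grx1 array correlated with its group at 0.994 or above. The lowest-signal 25% of the genes deviated most in grx2 control replicate 3 (median absolute deviation 0.59). Main results are therefore also given without that array, a choice made after its values were seen. Of 19 markers of haploid and mating-type cells, 18 had mean values under 6.91, the median over genes. The exception was RME1, a repressor of meiosis, at 7.03.

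Both mutants responded to CHP in a very similar way, and the difference between them was small beside the responses themselves. At 20 min 1481 genes rose (26.2% of those tested, limma, adjusted p under 0.05) and 1732 fell (30.6%) in grx2. In grx1 1334 rose (23.6%) and 1527 fell (27%). In total 2490 genes changed in the same direction in both responses and 0 in opposite directions. Across genes, which are not independent replicates, the responses correlated at 0.951, with a slope of grx2 on grx1 of 1.16 through the origin. The difference of responses was past the threshold for 92 genes, 44 higher in grx2 (0.778%) and 48 lower (0.849%), and 741 genes had an unadjusted p under 0.05. Of the 92, 25 were higher (0.442%) and 21 lower (0.371%) by at least 2-fold. With the outlying array kept, 24 of the 44 higher and 47 of the 48 lower genes were still called, and all 92 kept their sign. Over all 5656 genes the median difference was −0.02 on the log2 scale, with a median standard error of 0.24.

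**Figure D1:**
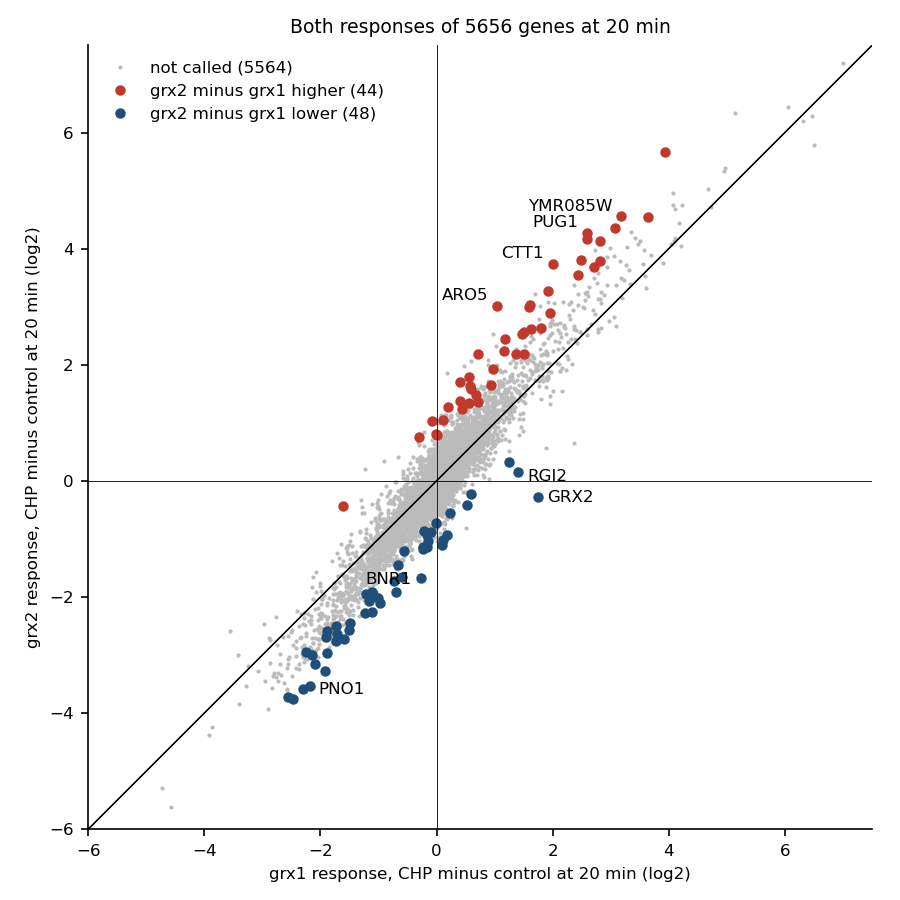
Response of each of 5656 genes at 20 min as the mean of CHP arrays minus the mean of control arrays on the log2 scale, grx2 on the vertical and grx1 on the horizontal axis, with the line of equal responses. The 44 genes called higher lie mostly above the line in the upper right and the 48 called lower mostly below it in the lower left, with GRX2 and RGI2 to the right of the origin.

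Most of the called genes moved the same way in both mutants and further in grx2. Of the 44 higher genes, 36 rose in both responses, 7 passed the threshold in grx2 but not in grx1, and 1 in grx1 but not in grx2. Their median response was 2.34 in grx2 and 1.27 in grx1. Of the 48 lower genes, 30 fell in both responses, 13 passed in grx2 but not in grx1, and 5 in grx1 but not in grx2. Their median response was −1.94 in grx2 and −0.99 in grx1. These medians describe genes chosen by the difference itself and are given without a test.

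Within the glutaredoxin and glutathione system, GRX2 itself was the 1 gene of 30 measured members past the threshold, beside 0.849% of all genes lower. It is the gene mutated in grx2, and its signal was low in every grx2 array. Its calls at any time therefore do not measure how grx2 cells respond. GRX2 rose by 1.76 in grx1 cultures and changed by −0.27 in grx2 cultures, which carry the mutation (difference −2.03 ± 0.30 SE, limma adjusted p = 1.7e-06). Without grx2 control replicate 3, whose GRX2 signal was the highest, the difference was −1.43 (adjusted p = 0.0038). In the reverse direction, GRX1 rose by 0.85 in grx2 and changed by 0.18 in grx1, a difference of 0.67 with a 95% interval of 0.14 to 1.21 (adjusted p = 0.23). GRX1 and GRX2 therefore each rose where the gene was present. The median difference over the list was −0.05, close to that of all genes.

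The genes of the other glutaredoxins, GRX3 to GRX8, gave no call. GRX3 differed by −0.14 (95% interval −0.49 to 0.21) and GRX4, a partner of Grx3 in iron sensing, by −0.14 (−1.07 to 0.78). GRX5, the mitochondrial member that serves iron-sulfur cluster assembly, rose by 0.89 in grx2 and by 0.49 in grx1 (difference 0.40, −0.09 to 0.88). GRX6 and GRX7, of the early secretory pathway, differed by 0.04 (−0.46 to 0.54) and −0.29 (−0.79 to 0.21). GRX8 differed by −0.38 (−1.06 to 0.30). The widths of these intervals mean that the absence of a call does not show that the mutants respond alike.

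Genes that make, recycle and use glutathione also gave no call. GSH1, the first enzyme of glutathione synthesis, rose by 1.59 in grx2 and 1.55 in grx1, and GSH2, the second, rose by 0.47 in grx2 and 0.52 in grx1. GLR1 rose by 0.80 in grx2 and 1.04 in grx1 (difference −0.24, 95% interval −0.79 to 0.31). The glutathione transferase gene GTT2 showed the widest response of the list, with 8.85 and 9.19 in grx2 CHP arrays against 4.16, 4.53 and 4.24 in grx2 controls. In grx1 it had 9.13, 9.38 and 9.22 with CHP against 4.63, 4.38 and 4.55 without, so its difference was −0.01 (−0.57 to 0.55). The glutathione peroxidase gene GPX2 rose by 4.04 in grx2 and 4.21 in grx1, and the Omega-class transferase gene ECM4 by 3.76 in grx2 and 3.89 in grx1.

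The largest difference in the list after GRX2 belonged to GTO3, a further Omega-class transferase gene, at 1.23 ± 0.45 SE (adjusted p = 0.16). It had 7.92 and 7.66 in grx2 CHP arrays against 4.28, 4.56 and 5.49 in grx2 controls. It had 7.35, 7.64 and 7.78 in grx1 CHP arrays against 5.95, 5.80 and 5.67 in grx1 controls, so the CHP arrays of the mutants overlapped and the controls did not. DUG3, of glutathione degradation, differed by −0.64 and GLO1, which detoxifies methylglyoxal with glutathione, by 0.31. The other members had absolute differences of 0.30 or less: GTO1 0.25, GPX1 0.24, GTT3 0.19, DUG1 0.15, GTT1 0.11, HYR1 0.09 and DUG2 0.02 on the positive side, and OPT1 −0.30, URE2 −0.18, YCF1 −0.12, GLO2 −0.11, ECM38 −0.05 and GLO4 −0.05 on the negative side.

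The Yap1 regulon, the main programme of peroxide defence, rose in both mutants. Of 39 measured genes 35 rose in grx2, with a median response of 2.14, and 35 in grx1, with a median of 2.25. A single member, AAD6, an aryl-alcohol dehydrogenase gene, passed the threshold for the difference, beside 0.778% of all genes higher. It had 7.92 and 7.35 in grx2 CHP arrays against 3.79, 3.35 and 2.69 in grx2 controls, and 6.58, 6.93 and 6.95 in grx1 CHP arrays against 3.75, 3.78 and 3.72 in grx1 controls. The difference was 1.29 ± 0.35 SE (adjusted p = 0.030), 0.99 without grx2 control replicate 3 (adjusted p = 0.19) and 0.87 with the outlying array kept (adjusted p = 0.071). AAD genes are close copies of one another, and how far their probe sets share signal was not tested. The median difference of the regulon was 0.03.

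No thioredoxin or peroxiredoxin gene of the 13 measured passed the threshold (limma, with 741 of all genes at an unadjusted p under 0.05), and their median difference was −0.04. Over all genes 0.778% were higher and 0.849% lower. SRX1, the sulfiredoxin gene, rose by 6.28 in grx2 and 6.46 in grx1, and TSA2, a stress-induced peroxiredoxin gene, by 6.20 in grx2 and 6.31 in grx1. TRR1, thioredoxin reductase, rose by 2.14 in grx2 and 2.25 in grx1. TSA1, the major peroxiredoxin gene, was the most narrowly bounded, with a difference of 0.01 ± 0.11 SE. These 4 genes and others named outside the largest differences, the gene lists' called members and the glutathione list were picked after their values were seen. Among the 6 genes for superoxide dismutases, catalases and cytochrome c peroxidase, CTT1 alone was called, while the peroxisomal catalase gene CTA1 rose by 3.32 in grx2 and 3.61 in grx1.

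CTT1, the cytosolic catalase gene, showed a larger rise in grx2. It had 9.14 and 7.44 in grx2 CHP arrays against 4.98, 5.07 and 3.60 in grx2 controls, and 6.42, 7.08 and 7.42 in grx1 CHP arrays against 5.22, 4.67 and 5.02 in grx1 controls. The lower grx2 CHP array thus lay only just above the highest grx1 CHP array. The difference was 1.74 ± 0.43 SE, a 3.34-fold ratio of responses (adjusted p = 0.017). It was 1.27 without grx2 control replicate 3 (adjusted p = 0.16) and 0.89 without grx2 CHP replicate 1.

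PUG1, a plasma membrane protein gene linked to heme and porphyrin transport, had 8.74 and 8.33 in grx2 CHP arrays against 4.41, 4.84 and 3.55 in grx2 controls. In grx1 it had 6.30, 7.81 and 7.94 with CHP against 4.78, 4.70 and 4.81 without. Both grx2 CHP arrays used were above all 3 of grx1, and the array left out, at 7.58, was below 2 of them. The difference was 1.69 ± 0.34 SE (adjusted p = 0.0014, and 0.040 without grx2 control replicate 3). ALD3, a cytosolic aldehyde dehydrogenase gene, had 7.93 and 7.15 in grx2 CHP arrays, and 7.72 in the array left out, against 4.42, 4.70 and 4.41 in grx2 controls. Its grx1 CHP arrays had 5.60, 6.40 and 6.45 against 4.56, 4.58 and 4.48 in grx1 controls. The control values of the mutants overlapped and the CHP values did not, with or without the array left out (difference 1.43 ± 0.33 SE, adjusted p = 0.0089).

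YMR085W and YMR084W, neighbouring reading frames, moved together. YMR085W had 10.17 and 9.11 in grx2 CHP arrays against 4.99, 5.25 and 5.001 in grx2 controls, and 7.92, 9.10 and 8.88 in grx1 CHP arrays against 5.54, 5.42 and 5.38 in grx1 controls. Its difference was 1.37 ± 0.26 SE (adjusted p = 8.8e-04) and that of YMR084W 1.35 ± 0.26 SE (adjusted p = 0.0010). In both, grx2 CHP replicate 1 stood far above the other grx2 CHP array used. Without it the differences were 0.84 for YMR085W and 0.72 for YMR084W, no longer past the threshold.

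Among the other 7 genes with the largest positive differences, of the called genes whose CHP arrays separate, ARO5 differed by 1.97, DFP3 by 1.57, ADH5 by 1.47, CSR2 by 1.40, PRM8 by 1.31, RTA1 by 1.31 and EGO4 by 1.29. ADH5 encodes an alcohol dehydrogenase, CSR2 an adaptor of the ubiquitin ligase Rsp5, PRM8 a membrane protein of a family with several similar members, and RTA1 a membrane protein of the lipid-translocating exporter family. In ARO5 the grx2 CHP arrays were at 8.96 and 7.37, and the array left out at 6.64, against 5.24, 5.41 and 4.81 in grx2 controls. Its grx1 CHP arrays were at 6.21, 6.96 and 6.92 against 5.53, 5.57 and 5.86 in grx1 controls, so that the array left out lay among the grx1 values, and with it kept the difference was 1.46 (adjusted p = 0.051). PUG1, ADH5, ALD3, YMR085W, YMR084W, PRM8 and EGO4 passed the threshold without grx2 control replicate 3, and ARO5, CTT1, DFP3, CSR2 and RTA1 did not. The differences of these 5 without it were 1.80 for ARO5, 1.27 for CTT1, 1.25 for DFP3, 1.35 for CSR2 and 1.03 for RTA1. HSP30, a plasma membrane heat shock protein gene, was called at 1.73 ± 0.46 SE, but its grx2 CHP arrays, at 11.78 and 8.51, overlapped those of grx1 at 6.81, 8.90 and 8.33. The difference of HSP30 was 0.090 without grx2 CHP replicate 1, 3.36 without grx2 CHP replicate 3, 1.12 without grx1 CHP replicate 1 and 1.08 with the outlying array kept (adjusted p = 0.096).

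**Figure D2:**
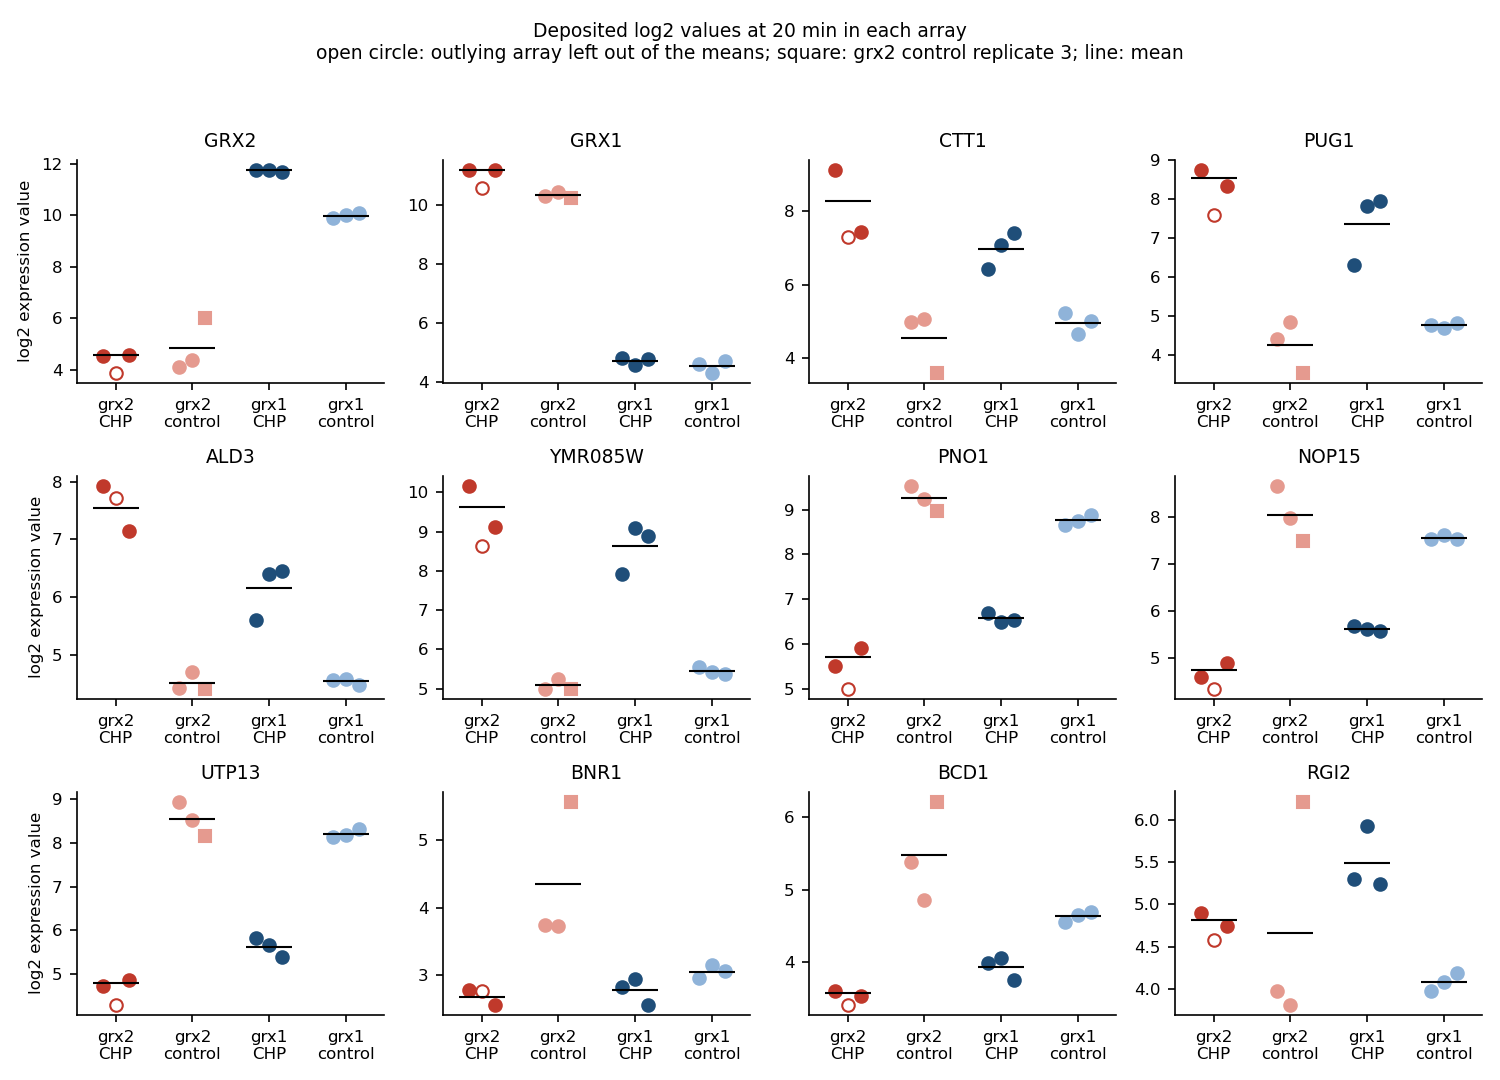
Deposited log2 values of 12 genes in each array at 20 min, with the groups grx2 CHP, grx2 control, grx1 CHP and grx1 control from left to right and lines at the group means of the arrays used. Among the arrays used, those of grx2 CHP are the highest in CTT1, PUG1, ALD3 and YMR085W and the lowest in PNO1, NOP15 and UTP13, and in BNR1, BCD1 and RGI2 the square of grx2 control replicate 3 lies far above the other grx2 controls.

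General stress genes as a group had a more positive difference than the genome. Of 46 measured Msn2/4 genes, 3 were called higher (CTT1, ALD3 and YGP1, a secreted glycoprotein gene, at 0.99) and 0 lower, beside 0.778% of all genes higher and 0.849% lower. The median difference was 0.53 against −0.02 over all genes, and 39 of the 46 values were above 0. Their median response was 1.56 in grx2, where 42 rose, and 1.28 in grx1, where 41 rose. The median difference was 0.48 without grx2 control replicate 3, with 3 members called, and 0.39 with the outlying CHP array kept, with 3 higher and 2 lower. Over all genes 0.301% were higher without that control. With the CHP array kept 4.33% of all genes were higher and 9.23% lower, at a median of −0.15, so the counts of that fit say little about this list. The list's median grx2 minus grx1 difference was 0.16 in CHP arrays and −0.27 in controls. The most negative member was HSP12, a membrane-protecting small heat shock protein gene, at −1.72 ± 0.56 SE (adjusted p = 0.099), and it was called lower with the outlying array kept (−1.79, adjusted p = 0.017). YGP1 just missed the threshold there (0.73, adjusted p = 0.0503).

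The 20 genes of trehalose and glycogen metabolism also had a median difference of 0.53, and 19 of the 20 were above 0, but none was called by limma. The lists share 11 genes, 55% of this list and 23.9% of the stress list, so the 2 medians are not separate measurements. Among the shared genes are GSY1, a glycogen synthase gene, at 1.44, and TSL1, a subunit of the trehalose synthase complex, at 0.92. GSY1 had 8.28 and 8.64 in grx2 CHP arrays against 7.78, 8.41 and 8.55 in grx2 controls, while grx1 CHP arrays had 8.51, 8.29 and 8.05 against 9.59, 9.53 and 9.42 in grx1 controls. The CHP arrays of the mutants overlapped and the controls did not. Over the trehalose and glycogen list the median grx2 minus grx1 difference was 0.08 in CHP arrays and −0.30 in controls.

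Genes for ribosome assembly had negative differences, having fallen further in grx2 than in grx1. All 57 measured genes of the small-subunit processome, the complex that cuts and folds the precursor of the small ribosomal subunit, had a negative difference, with a median of −0.61, and 7 were called lower and 0 higher. All 59 factors of large-subunit assembly were negative as well, with a median of −0.67, and 3 were called. Among 39 genes for RNA polymerases I and III the median was −0.32, and RPA12, RPC25 and RPC53 were called. Over all genes 0.849% were lower. Nearly all of the assembly genes fell in both mutants, 57 of 57 in grx2 and 56 of 57 in grx1 for the small subunit, and 59 of 59 in grx2 and 58 of 59 in grx1 for the large. Their median response was −2.33 in grx2 and −1.74 in grx1 for the small subunit, and −2.33 in grx2 and −1.66 in grx1 for the large. Among the polymerase genes 32 of 39 fell in grx2 and 28 of 39 in grx1.

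PNO1, needed for small-subunit maturation, had 5.52 and 5.91 in grx2 CHP arrays against 9.53, 9.24 and 8.97 in grx2 controls. It had 6.69, 6.50 and 6.54 in grx1 CHP arrays against 8.66, 8.74 and 8.89 in grx1 controls. The grx2 arrays were thus lower with CHP and higher without it, with no overlap in either arm (difference −1.34 ± 0.29 SE, a ratio of 0.394, adjusted p = 0.0038). NOP15, a large-subunit factor, had 4.61 and 4.91 in grx2 CHP arrays against 8.66, 7.97 and 7.48 in grx2 controls, and 5.68, 5.63 and 5.57 in grx1 CHP arrays against 7.52, 7.61 and 7.52 in grx1 controls. Here the CHP arrays did not overlap and the controls did (difference −1.35 ± 0.32 SE, adjusted p = 0.0089). UTP13, a subunit of the processome, had 4.74 and 4.88 in grx2 CHP arrays against 8.93, 8.51 and 8.16 in grx2 controls, and 5.84, 5.67 and 5.39 in grx1 CHP arrays against 8.14, 8.16 and 8.30 in grx1 controls (difference −1.16 ± 0.32 SE, adjusted p = 0.040).

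EFG1, of small-subunit rRNA maturation, differed by −1.28 and RLP24, a large-subunit factor, by −1.27. PNO1, NOP15, EFG1, RLP24 and UTP13 were also past the threshold without grx2 control replicate 3, at −1.35 to −1.63. The small-subunit genes UTP15 (−1.07) and PWP2 (−1.08), the large-subunit methyltransferase gene SPB1 (−1.05), CGR1 (−1.14) and RRP17 (−1.14), both of rRNA processing, completed the ribosome assembly genes that the naming rule took. Without that array the processome list had 6 called and a median of −0.67, and the large-subunit list had 3 called and a median of −0.76. Over all genes 0.407% were lower without it. The polymerase list then had 1 called, RPC25, and a median of −0.40, while RPA12 stood at −1.0004 (adjusted p = 0.053) and RPC53 at −0.62 (adjusted p = 0.17). With the outlying CHP array kept the small-subunit list had 27 called lower and 1 higher, the large-subunit list also 27 and 1, and the polymerase list 14 and 2. That fit called 9.23% of all genes lower and 4.33% higher. RLP24 was the 1 gene of the 48 no longer called there, at −0.82 (adjusted p = 0.067).

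Other strongly negative genes lost their call without grx2 control replicate 3. BNR1, a formin that nucleates actin filaments, had 2.78 and 2.56 in grx2 CHP arrays against 3.74, 3.73 and 5.58 in grx2 controls, and 2.82, 2.94 and 2.56 in grx1 CHP arrays against 2.96, 3.14 and 3.05 in grx1 controls. The CHP arrays of the mutants overlapped and all 3 grx2 controls were higher than those of grx1, control replicate 3 most of all. The difference was −1.40 ± 0.27 SE (adjusted p = 8.8e-04), and −0.79 without that array (adjusted p = 0.069). RGI2, of respiratory growth, had 4.90 and 4.74 in grx2 CHP arrays against 3.97, 3.81 and 6.22 in grx2 controls, and its difference of −1.26 became −0.48 without control replicate 3. AI5_BETA, a reading frame in an intron of the mitochondrial COX1 gene, had 5.30 in that array and 2.25 to 2.49 in the 4 other grx2 arrays used, and its difference of −1.20 became −0.24. BCD1, of small nucleolar RNA assembly (−1.21), the kinesin gene CIN8 (−1.15), RRP17 and CGR1 also missed the threshold without it, with differences of −0.85, −0.87, −0.85 and −1.01 in that order.

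The other lists held few or no calls. At the shares of all genes, 0.778% higher and 0.849% lower, lists of this size would hold few or no calls. ARG4, of arginine synthesis, was higher by 0.94, with 12.32 and 12.10 in grx2 CHP arrays against 10.998, 11.22 and 11.27 in grx2 controls, and 11.24, 11.53 and 11.48 in grx1 CHP arrays against 11.35, 11.25 and 11.33 in grx1 controls. It was the 1 gene called of 56 in amino acid synthesis. MTD1, a folate enzyme gene, differed by −0.96 and was the 1 called of 18 in purine synthesis, a list whose median was −0.26. RME1 was higher by 0.82 and was the 1 called of 25 haploid and mating genes, whose median log2 level was 4.53 to 4.58 in grx2 CHP arrays, 4.10 to 4.39 in grx2 controls, 4.31 to 4.50 in grx1 CHP arrays and 4.12 to 4.33 in grx1 controls. Without grx2 control replicate 3 ARG4 stood at 0.995 (adjusted p = 0.056) and RME1 at 0.59 (adjusted p = 0.24). With the outlying array kept ARG4 stood at 0.69 (adjusted p = 0.054) and RME1 at 0.48 (adjusted p = 0.13).

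Iron uptake genes had a positive median difference of 0.30 with 0 of 29 called by limma. The untreated cultures of grx2 were unlike each other here: the list's median level was 6.78, 7.997 and 8.75 in grx2 controls, against 8.69, 8.72 and 8.66 in grx1 controls. FIT2, a cell wall mannoprotein gene for iron-siderophore retention, had 7.60, 8.89 and 12.30 in the grx2 controls, and its difference of 1.67 had a standard error of 0.95. The list median was 0.63 without grx2 control replicate 3, 0.58 without grx2 CHP replicate 1, 0.0038 without grx2 control replicate 1 and 0.037 without grx2 CHP replicate 3. The TCA cycle and respiratory chain had a median of 0.24 over 45 genes, the proteasome −0.15 over 34, Hsf1 chaperones −0.12 over 32 and cytosolic ribosomal proteins 0.03 over 79, with 0 called in each. Over all genes 0.778% were higher and 0.849% lower.

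**Figure D3:**
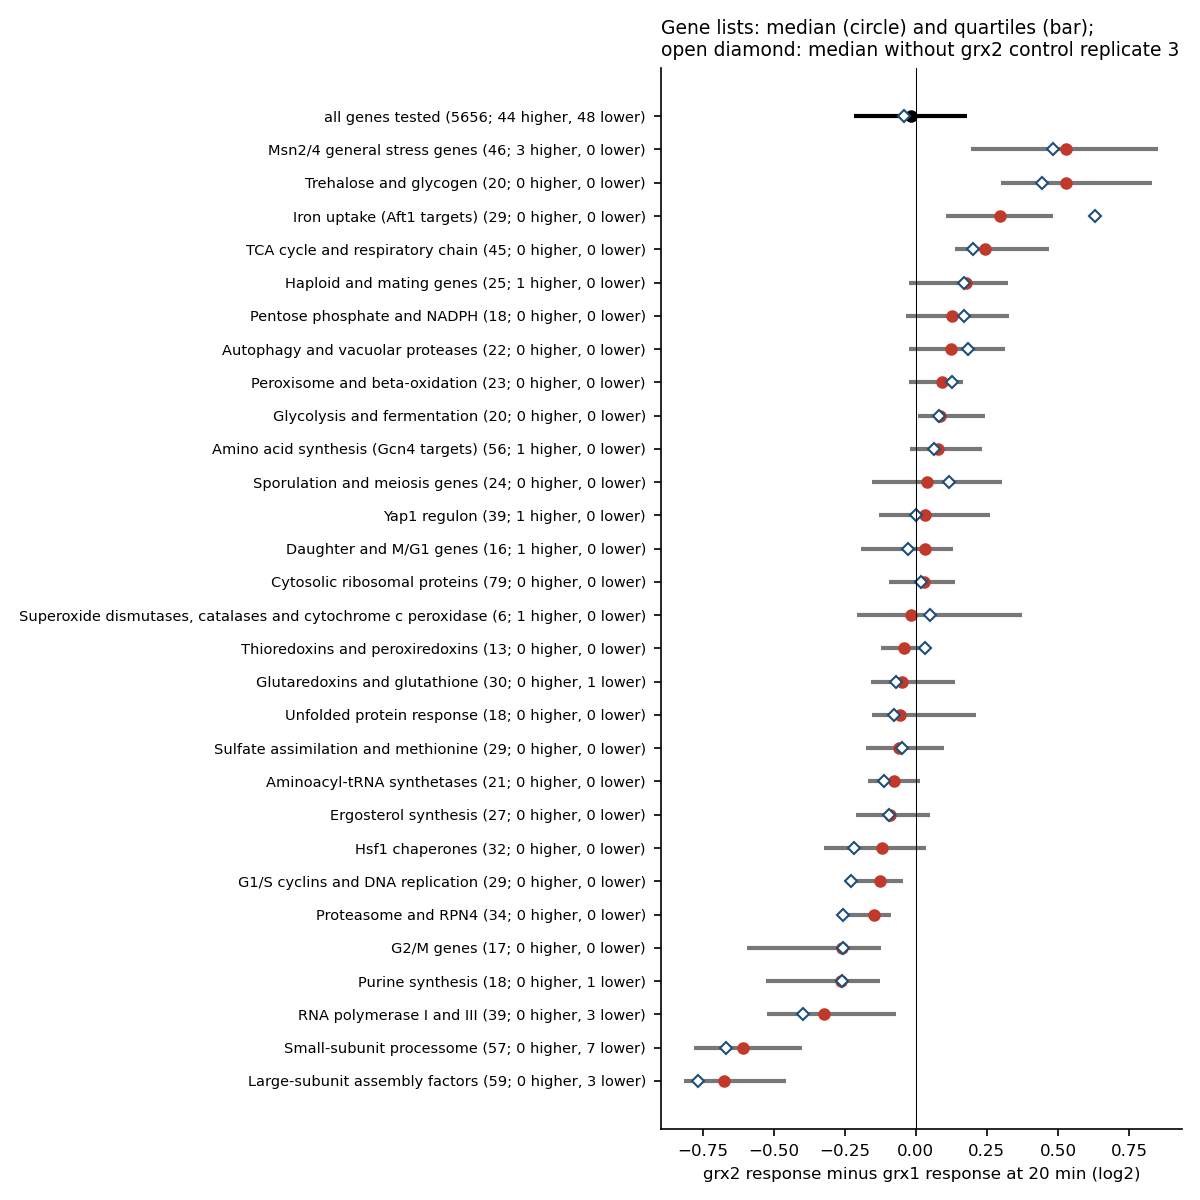
Median (circle) and quartiles (bar) of the grx2 minus grx1 difference of responses at 20 min for 29 gene lists and all genes, on the log2 scale, with the number of genes and calls beside each name and open diamonds for medians without grx2 control replicate 3. The stress and the trehalose and glycogen lists are highest at 0.53, the ribosome assembly lists lowest at −0.61 and −0.67, and the iron list moves to 0.63 without that array.

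Taking the classes from wild type, whose arrays enter neither response, gave the same direction. Wild type raised 271 genes by 2-fold or more at 20 min (4.79% of genes). Of these, 19 were called higher (7.01% of the class) and 1 lower (0.369%), with a median difference of 0.26. Their median response was 2.27 in grx2, 1.93 in grx1 and 1.50 in wild type. It lowered 341 by as much (6.03%), and of these 15 were called lower (4.40% of the class) and 1 higher (0.293%). Their median difference was −0.34, with median responses of −2.08 in grx2, −1.71 in grx1 and −1.37 in wild type. Among the other 5044 genes 24 were called higher and 32 lower, with a median of −0.01. The shares over all 5656 genes were 0.778% higher and 0.849% lower. Without grx2 control replicate 3 the class that rose held 8 higher and 1 lower, and the class that fell 14 lower and 1 higher. That fit called 0.301% of all genes higher and 0.407% lower.

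The difference of responses was then split into its arms. In CHP arrays 70 genes were higher (1.24%) and 52 lower (0.919%) in grx2 than in grx1, and in control arrays 203 were higher (3.59%) and 70 lower (1.24%). Of the 44 genes with a higher difference of responses, 23 were higher in CHP arrays and 7 lower in controls. Of the 48 with a lower difference, 9 were lower in CHP arrays, GRX2 among them, and 28 were higher in controls. The genes were chosen by the CHP difference minus the control difference, so a shift in either arm or both follows from the choice. The counts describe these genes and are given without a test. For the processome list the median grx2 minus grx1 difference was −0.19 in CHP arrays and 0.42 in controls, and for large-subunit factors −0.23 in CHP arrays and 0.43 in controls. The processome list had median levels of 4.93 and 4.96 in grx2 CHP arrays, 7.89, 7.38 and 7.41 in grx2 controls, 5.32, 5.23 and 5.13 in grx1 CHP arrays, and 6.97, 7.13 and 6.98 in grx1 controls. Neither arm overlapped, and the wider gap was between the controls. The count of control genes higher in grx2 was 19 (0.336%) without grx2 control replicate 3, with 38 lower (0.672%), while the processome median there was 0.50.

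Earlier in the time course few genes were called. At 0 min limma called 0 genes between the arms of the mutants, with 19 at an unadjusted p under 0.05, and at 3 min 0 genes with 246. At 6 min 1 gene was called higher (0.0177%), YOR385W at 1.20, and 1 lower (0.0177%), GRX2 at −1.44. At 12 min 4 were called higher (0.0707%), YPR145C-A, YOR385W, SRY1 and FMS1, and 5 lower (0.0884%), RMI1, EUC1, FHL1, CSM3 and GRX2. GRX2, YOR385W and FMS1, a polyamine oxidase gene, were called again at 20 min, YOR385W not with the outlying array kept (0.62, adjusted p = 0.062). Of the genes called at 20 min, 40 of 44 higher and 39 of 48 lower had the same sign at 12 min, and 19 of 44 and 33 of 48 had it at 0 min. The time points come from the same cultures and the share over all genes is not given, so these counts are a description only.

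The list medians in each CHP culture show that the ribosome assembly difference was not absent at the start in every culture. At 0 min the processome median, taken against the controls of the same genotype, was 0.14, −0.23 and −0.61 in the grx2 CHP cultures 1, 2 and 3, and −0.09, −0.04 and 0.02 in those of grx1. At 3 min it was 0.10, −0.32 and −0.45 in grx2 and 0.06, 0.17 and 0.27 in grx1. At 6 min it was −0.15, −0.67 and −0.68 in grx2 and −0.22, −0.30 and −0.09 in grx1, and the cultures overlapped at both times. At 12 min it was −1.22, −1.41 and −1.52 in grx2 and −1.04, −0.96 and −1.16 in grx1. At 20 min it was −2.33 and −2.40 in grx2, and −2.79 in the array left out, against −1.62, −1.84 and −1.83 in grx1. All grx2 cultures were below all grx1 cultures at 12 and 20 min. The cultures of a genotype share the control mean that was subtracted, so a shift in the controls moves all of them together. The median difference of responses over the processome list was −0.17 at 0 min, −0.41 at 3 min, −0.25 at 6 min, −0.34 at 12 min and −0.61 at 20 min. The Msn2/4 median was 1.52 and 1.63 in grx2 at 20 min, and 1.10 in the array left out, against 1.22, 1.26 and 1.23 in grx1, so the array left out fell below the grx1 cultures. The Yap1 median was 2.18 and 2.11 in grx2 at 20 min against 2.17, 2.29 and 2.20 in grx1, and the cultures overlapped.

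**Figure D4:**
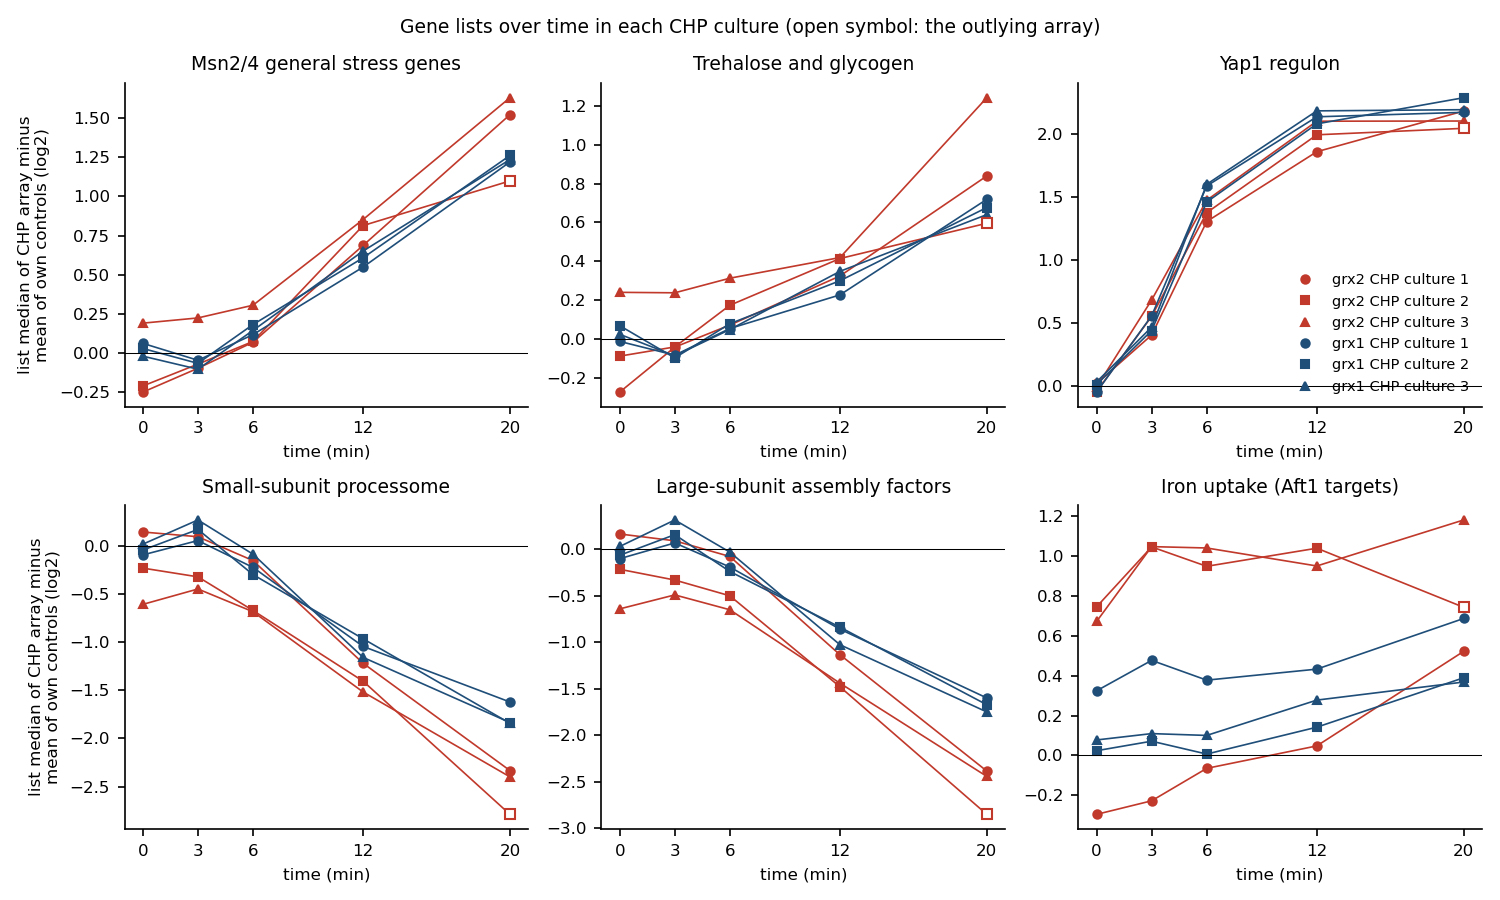
Median of 6 gene lists in each CHP culture minus the mean of the control arrays of its genotype at that time, on the log2 scale, against time in min, with the outlying array at 20 min as an open symbol. The ribosome assembly lists separate by genotype at 12 and 20 min, the Yap1 lists run together, and the iron list differs among grx2 cultures from 0 min.

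The number of calls depended on single arrays. Leaving out grx2 CHP replicate 1, so that grx2 CHP replicate 3 stood alone, left 0 genes higher and 3 lower (GRX2, BNR1 and SVF1), with 470 at an unadjusted p under 0.05. Leaving out grx2 CHP replicate 3 gave 118 higher and 105 lower, and keeping the outlying array 245 higher (4.33%) and 522 lower (9.23%). Without grx2 control replicate 3 the counts were 17 higher (0.301%) and 23 lower (0.407%), of which 13 and 17 were among the genes first called. Without grx2 control replicate 2 they were 82 higher and 145 lower, and without control replicate 1 they were 52 and 87. Leaving out grx1 CHP replicate 1 gave 7 and 13, and grx1 control replicate 1 gave 12 and 11, with 29 and 30 and 27 and 27 without grx1 control replicates 2 and 3. A fit on the 11 arrays alone called 0 genes. Apart from the loss of grx2 CHP replicate 1, 8 genes were called whichever array was left out: EGO4, FMS1, PRM8, YMR084W and YMR085W were higher, and GRX2, PNO1 and SCC2, a cohesin loader gene, were lower.

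**Figure D5:**
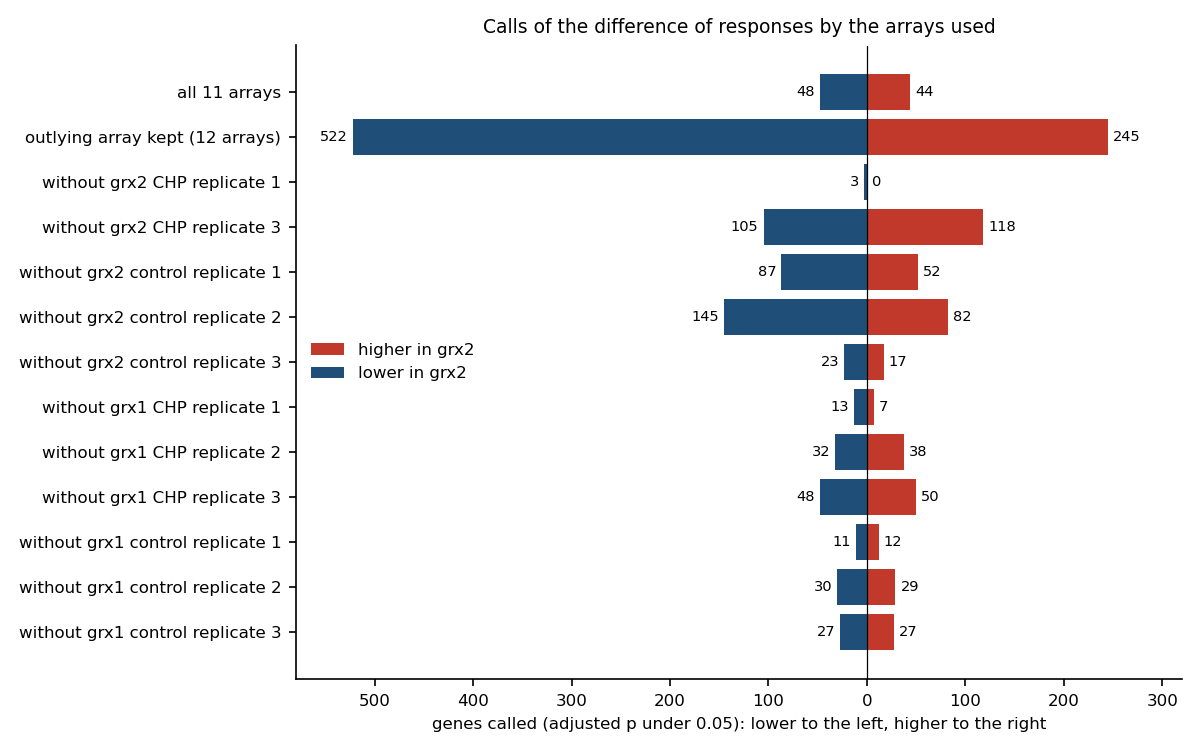
Number of genes called at an adjusted p under 0.05 for the grx2 minus grx1 difference of responses at 20 min, higher to the right and lower to the left, for all 11 arrays, with the outlying array kept, and with each array left out in turn. The counts run from 0 higher and 3 lower without grx2 CHP replicate 1 to 245 higher and 522 lower with the outlying array kept.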

How the data were processed

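RNA of 210 cultures was hybridized to Affymetrix Yeast Genome S98 arrays, per the labels. The deposited table holds log2 expression values that the authors made with RMA, per the submitters' processing notes. The sources used here do not give RMA's version or settings, or say whether the arrays were normalized in 1 run. Raw scans were not analysed here. Of 9335 probe sets, 6504 name 1 gene, 328 several and 2443 none, and 60 are controls; the probe set with the highest mean was kept per gene, leaving 5656 genes, named through the platform table and RefSeq (assembly R64).

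Each contrast was fitted with limma 3.58.1 in R 4.3.3 over 209 arrays in 70 groups (139 residual degrees of freedom), with Benjamini-Hochberg adjustment over all genes at 0.05. The replicate is the culture; its 5 time points were treated as independent. No 2 arrays were identical. The number of arrays limits the precision. The members and the 29 gene lists were chosen with earlier results of these data known. Named genes are the 12 largest called differences in each direction whose CHP arrays, each minus its genotype's control mean, separate, up to 4 called genes per list, and the glutathione list. The fit of the difference of responses was also run on simulated arrays (5656 genes). It recovered 10.4% of genes changed by 0.5, 71.6% by 1 and 93.9% by 1.5 (log2). It made 6 false calls of 123, and 0 calls with no change. These rates belong to the simulated arrays, and whether they hold for the measured arrays was not tested. In grx2 control replicate 3, 499 genes lay over 1 log2 unit from the other controls, against 0 to 21 genes in grx1 arrays. The rates therefore do not give the share of false calls in the measured difference. Motif counts in promoters, planned at first, were not run, as no sequence was used here. The alternatives were quantile normalization, median centring, fewer arrays in the fit, a block for replicate number or culture, leaving out dim genes, averaging probe sets, an intensity trend with robust estimation, and leaving out or keeping single arrays.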

Additional observations from a re-analysis of the deposited data

Results flagged for a closer look

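Each value in this section is a difference between the grx2 and the grx1 effect of CHP, tested with limma as the difference itself. At 20 min it was past the threshold for 44 genes with a higher and 48 with a lower response in grx2. The lists below hold only called genes whose CHP arrays, each minus its genotype's control mean, separate. HSP30, called at 1.73, is therefore not among them. The 12 largest positive differences of such genes on the log2 scale were ARO5 at 1.97, CTT1 at 1.74, PUG1 at 1.69, DFP3 at 1.57, ADH5 at 1.47, ALD3 at 1.43, CSR2 at 1.40, YMR085W at 1.37, YMR084W at 1.35, PRM8 at 1.31, RTA1 at 1.31 and EGO4 at 1.29. The 12 largest negative differences of such genes beside GRX2 were BNR1 at −1.40, NOP15 at −1.35, PNO1 at −1.34, EFG1 at −1.28, RLP24 at −1.27, RGI2 at −1.26, BCD1 at −1.21, AI5_BETA at −1.20, UTP13 at −1.16, CIN8 at −1.15, RRP17 at −1.14 and CGR1 at −1.14. Of these 24 genes, 12 missed the threshold without grx2 control replicate 3, and 23, all but BNR1, missed it without grx2 CHP replicate 1. The lowest-signal 25% of the genes held 14 of the 44 higher and 26 of the 48 lower genes. Their part in the counts was not tested, beyond the count with those genes left out (18 higher and 13 lower).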

How the results depend on the processing

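Counts for the 20 min difference, 44 higher and 48 lower, moved under several settings. They were 29 and 31 with quantile normalization, 18 and 13 with the dimmest 25% of genes left out, 0 and 0 on the arrays of the contrast alone, and 245 and 522 with the outlying array kept. The higher share was 47.8% at first, 58.1% without the dimmest genes and 31.9% with the outlying array, which also shifted the median of all genes to −0.15. Keeping that array and leaving out grx2 control replicate 3, chosen after seeing the data, gave 191 and 400. With grx1 and grx2 arrays only, the lower count was 31. Leaving out each array in turn gave 0 to 118 higher and 3 to 145 lower.

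The replicate numbers were not shown to pair cultures: at 20 min the same-number correlations of CHP and control deviations were 0.222 and 0.151 in grx2 and −0.025, −0.002 and 0.067 in grx1. At 0, 3 and 6 min they were higher for grx2 replicate 3, at 0.722, 0.672 and 0.454. For grx2 replicate 2 they were −0.044, −0.171 and −0.063, and for grx2 replicate 1 they were 0.109, 0.249 and 0.211. With the replicate number as a block the counts were 69 higher and 85 lower, 373 genes between CHP arrays, 777 between control arrays and 18 at 12 min.

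The grx2 response of 3213 genes was 1909 on its own arrays and 2629 to 3142 with an array left out. The grx1 response of 2861 rose to 3563 on its own arrays and was 2554 to 2735 with an array left out. The 122 genes between CHP arrays were 3 on those arrays alone, 1038 with the outlying array, 1059 with it and without grx2 control replicate 3, and 3 to 291 with an array left out. The 273 between controls were 177 with grx1 and grx2 arrays only, 71 without the dimmest genes, 2 on those arrays alone, and 57 to 576 with an array left out. At 6 min the 2 genes were 0 with grx1 and grx2 arrays only and on the contrast's arrays, and 1 to 3 with an array left out. At 12 min the 9 were 0 and 2 in those fits, 5 with culture as a random block, 4 without the dimmest genes, and 2 to 88 with an array left out. The counts of 0 at 0 and 3 min stayed 0 in each fit run. The fits on fewer arrays estimate the spread from fewer samples and from those groups alone, and their counts moved in both directions. The causes of the changes were not tested.

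Of the 24 genes with the largest differences, 24 kept their sign in every alternative. In the glutathione list, sign turned in 16 members, 0 of them called. Elsewhere, among others, TSA1 was −0.046 with the outlying array kept, and without grx2 control replicate 3 CTA1 was 0.056, TSA2 0.13 and BIO3 −0.62. With the outlying array kept, GRX6 was −0.25, GSH1 −0.15, HYR1 −0.15, GTT1 −0.10, GTT2 0.071, GTT3 −0.020, ECM38 0.029, DUG1 −0.053 and DUG2 −0.089, and GTT2 was 0.031 with the replicate block and 0.020 with culture as a block. With an array left out, the ranges were −0.63 to 0.21 for GRX4, −0.12 to 0.19 for GRX6, −0.073 to 0.19 for GSH1, −0.22 to 0.050 for GSH2, −0.15 to 0.36 for GTT1 and −0.18 to 0.15 for GTT2. They were −0.50 to 0.22 for ECM4, −0.46 to 0.21 for YCF1, −0.68 to 0.076 for OPT1, −0.20 to 0.18 for ECM38, −0.15 to 0.14 for DUG2, −0.24 to 0.0044 for GLO2 and −0.20 to 0.052 for GLO4.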

Other observations

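BIO5 and BIO3 varied among the untreated cultures of both mutants at 20 min. BIO5, a biotin precursor transporter gene, had log2 values of 8.62, 8.08 and 5.29 in the 3 grx2 controls and 7.89, 8.22 and 5.63 in the 3 grx1 controls. BIO3, of biotin synthesis, had 9.05, 8.61 and 6.03 in grx2 controls and 8.33, 8.60 and 6.10 in grx1 controls. In both genotypes control replicate 3 was the low one, and the difference of responses was −0.05 ± 1.15 SE for BIO5 and 0.31 ± 1.09 SE for BIO3, neither called. These genes were picked after their values were seen.

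HSP12 and FRM2 had the most negative differences of the Msn2/4 list and of the Yap1 regulon, whose median differences were 0.53 and 0.03. HSP12 had 8.002 and 9.34 in grx2 CHP arrays against 8.12, 7.12 and 8.80 in grx2 controls, and 8.54, 8.87 and 9.47 in grx1 CHP arrays against 6.75, 6.59 and 6.42 in grx1 controls. Its grx2 controls were above those of grx1 without overlap, and its difference of responses passed the threshold with the outlying array kept (−1.79, adjusted p = 0.017) but not with it left out (−1.72, adjusted p = 0.099). FRM2, a nitroreductase-like gene of the Yap1 regulon, rose with its list, by 5.79 in grx2 and 6.51 in grx1. It had 6.10 in grx2 control replicate 3 against 4.61 and 4.71 in the other grx2 controls. Its difference of −0.72 was not called (limma adjusted p = 0.37) and was −0.24 without that array.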
